A study of Mus musculus with 6 samples.

Results

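The genes described here encode the matrix metalloproteases (MMPs, symbols Mmp), the membrane-bound ADAM proteases, the secreted ADAMTS proteases with the ADAMTS-like proteins, and the tissue inhibitors of metalloproteases (TIMPs). They were taken by symbol, which matched 84 of the 49523 symbols in the count table: 23 Mmp, 33 Adam, 19 Adamts, 5 Adamtsl and 4 Timp genes. Levels are given for the 34 genes whose 6 counts sum to 60 or more, and all 34 also passed the low-count filter of the test. RNA sequencing was done on EO771, a mouse mammary carcinoma line, in 3 libraries of cells labelled as cancer stem cells (CSC) and 3 of cells labelled as not (non-CSC). No treatment, genetic change or time is named for either group. How the CSC were separated, and whether each library came from its own culture, is not stated. The p-values therefore describe the spread of these libraries, which could be technical.

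MMPs are zinc proteases that cut collagens, proteoglycans and other matrix proteins, and most are secreted as inactive precursors. Many ADAMs act as sheddases, which release growth factors, cytokines and receptor domains from the cell surface. ADAMTS proteases act on matrix proteoglycans and procollagens, and TIMPs bind and block the active sites of these enzymes. In mammary tumours the family is known for roles in invasion and in the release of ligands of the EGF receptor.

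Of the 34 genes with values, 20 were higher in CSC, 10 were lower and 4 did not pass the test (edgeR quasi-likelihood test, adjusted p under 0.05 over all 17630 genes tested). In that comparison 66.5% of all genes tested were called, 33.4% higher and 33.1% lower, against 88.2% of these 34. Changes of at least 2-fold were found for 10 of the 34, namely 7 higher and 3 lower. Among all genes tested 12.1% changed that much, 8.01% higher and 4.09% lower. The median log2 fold change was 0.25 for the 34 genes and 0.01 for all genes tested. The 3 CSC values and the 3 non-CSC values did not overlap for 29 of the 34, against 69.3% of all genes tested. A gene with few counts could enter the 34 through the group in which it was high, so these shares do not show that the family stands apart.

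**Figure D1:**
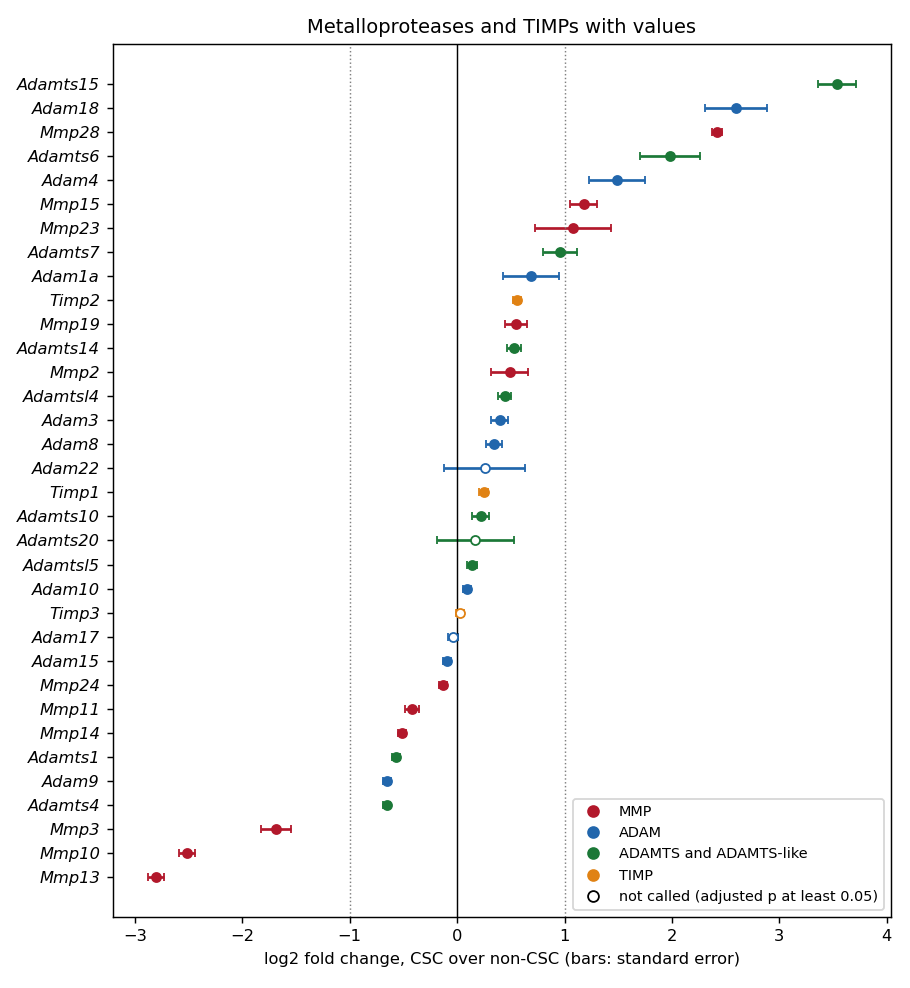
Log2 fold change of CSC over non-CSC (horizontal axis) for the 34 genes with values, coloured by family. Bars are standard errors, open circles mark the 4 genes that did not pass the test, and dotted lines mark 2-fold. Mmp13, Mmp10 and Mmp3 lie to the left of the 2-fold line and 7 genes, led by Adamts15, to the right.

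Library totals ranged from 27099879 to 35971131 counts, and the 84 genes took 0.263% to 0.273% of them in each of the 6 libraries. Levels are in CPM, which relates a gene's count to the TMM-scaled size of its library. The spread within groups was small (common biological coefficient of variation 4.11%), which lets small differences pass. Of 6 markers of mammary carcinoma identity, 3 were higher in CSC, 1 lower and 2 not called. The keratin gene Krt7 rose from 501 to 1056 CPM, Krt8 from 714 to 863 and Krt19 from 657 to 734 CPM, while Krt18 had 1254 and 1265 CPM. Epcam, which encodes an epithelial adhesion molecule, fell from 21.3 to 10.2 CPM (log2 fold change -1.05), and the E-cadherin gene Cdh1 had 0.951 and 0.751 CPM. Markers of T cells and of germ cells were at or near 0, with all 5 and all 6 genes under 60 counts. Of 8 macrophage and monocyte markers, 3 rose, 1 fell and Adgre1 was at 0 counts. Their summed level was 47.8 to 50.8 CPM in non-CSC and 65.3 to 67.8 CPM in CSC libraries. Most of this sum was Cd14 (20.7 and 30.5 CPM) and Cd68 (25.4 and 17.8 CPM). Itgam rose from 0.740 to 10.2 CPM and Csf1r from 1.85 to 8.06 CPM, while Ptprc and Lyz2 had 22 and 34 counts in all. Of 7 neutrophil markers 6 were under 60 counts, and the sum was 1.91 to 2.77 CPM in non-CSC and 8.68 to 10.2 CPM in CSC. Most of it was Ly6g, which rose from 2.20 to 9.01 CPM. The 9 fibroblast markers summed to 555 to 589 CPM and 1195 to 1242 CPM, almost all of it Dcn, with Lum and Thy1 at 0. All 3 that were tested rose, Dcn from 566 to 1211, Pdgfra from 6.57 to 8.37 and Col1a1 from 0.514 to 1.06 CPM. The other 6 were under 60 counts. Of 5 endothelial markers, Tek was at 0 and Pecam1 fell, with sums of 0.481 to 0.796 and 0.389 to 0.551 CPM. The part of these markers in the results below was not tested. In bulk RNA, fewer cells of a type and less RNA per cell cannot be told apart.

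The secreted collagenase and stromelysin genes were lower in CSC. All 4 with values fell, and 3 of them fell more than 2-fold, while 7 of the 11 genes of this class had too few counts for values. Mmp13, which encodes collagenase 3, measured 33.4, 32.9 and 31.8 CPM in non-CSC and 4.10, 5.26 and 4.68 CPM in CSC. The groups lay far apart, a 6.97-fold fall (log2 fold change -2.80 ± 0.075 SE, edgeR adjusted p = 2.48e-19). Mmp10, the gene of stromelysin 2, measured 32.4, 34.4 and 35.7 CPM in non-CSC and 6.82, 5.54 and 5.61 CPM in CSC. Every CSC library lay below every non-CSC library, a 5.71-fold fall (log2 fold change -2.51 ± 0.074 SE, adjusted p = 1.66e-18). Mmp3 encodes stromelysin 1, which cuts proteoglycans and activates other MMPs. It was a low gene, at 4.55, 5.33 and 4.27 CPM in non-CSC and 1.31, 1.41 and 1.65 CPM in CSC, a 3.23-fold fall (log2 fold change -1.69 ± 0.14 SE, adjusted p = 2.52e-10). Mmp11, the gene of stromelysin 3, went from 21.9 ± 1.72 down to 16.4 ± 0.405 CPM (SD over 3 libraries each; log2 fold change -0.42) and lies elsewhere, on chromosome 10. Exons of Chchd10 cover 5.58% of the exon bases of Mmp11, and Chchd10 also fell, from 5.86 to 1.20 CPM. Mmp3 and Mmp10 share 8.39% and 8.37% of the 50-base words of their longest transcript, so reads from these parts could belong to either. How such reads were assigned is not stated. Mmp10 was far more abundant than Mmp3 in both groups, so the level of Mmp3 and the size of its fall are uncertain.

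Mmp13, Mmp3 and Mmp10 are neighbours. They lie on chromosome 9 (GRCm38) at 7272514 to 7283333, 7445822 to 7455975 and 7502342 to 7510242, in a cluster of 10 Mmp genes. The other 7 genes of the cluster, Mmp12, Mmp1b, Mmp1a, Mmp8, Mmp27, Mmp20 and Mmp7, had sums of 0 to 13 counts over the 6 libraries. Genes around the cluster did not share the fall as a group. Of the 26 tested genes next to Mmp10 that are not members of these families (fewer lie on the side of the chromosome end), 16 were higher in CSC and 5 lower, with a median log2 fold change of 0.26. The closest tested gene on each side, Dcun1d5 and Gm10709, chosen after their values were seen, fell by 0.19 and 0.34 on the log2 scale.

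**Figure D2:**
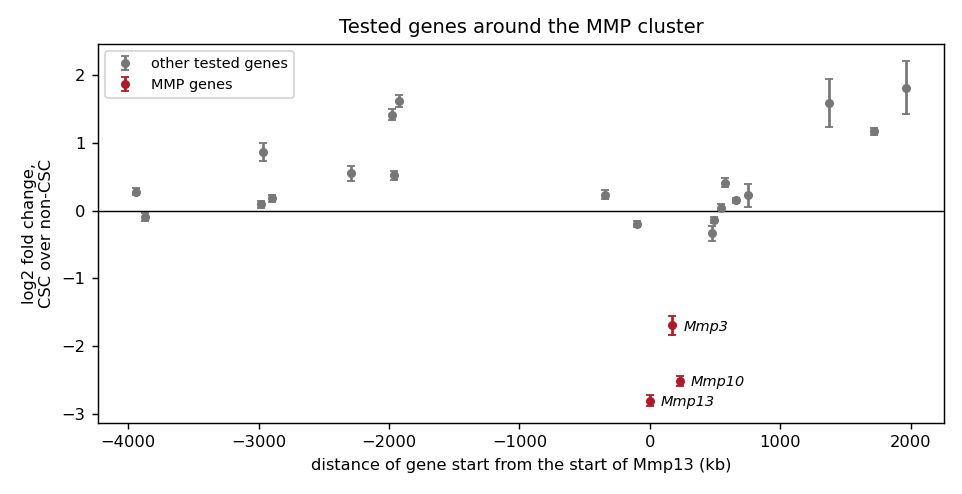
Log2 fold change of CSC over non-CSC (vertical axis, bars are standard errors) for tested genes of chromosome 9, by the distance of their start from the start of Mmp13 in kb. The 3 MMP genes (red) lie between -2.80 and -1.69, below every other tested gene of the stretch (grey).

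The promoters of these 3 genes are shown because the genes fell together, and the motif searched was not particular to them within the cluster. RefSeq start sites of GRCm38.p6 gave windows of 250 bases before to 50 bases after the start for 23 of the 34 genes. The windows were searched for the AP-1 type motif TGANTCA, a pattern that reads the same on both strands. It was found in 3 of the 23 genes, Mmp3, Mmp10 and Mmp13, and in 7.81% of all 32851 windows. It was also found in 5 of the 7 cluster genes without values, Mmp12, Mmp1b, Mmp1a, Mmp20 and Mmp7, which had 0 to 13 counts, so 8 of the 10 genes of the cluster hold it. The windows are chr9:7272264-7272563 for Mmp13, chr9:7502092-7502391 for Mmp10 and chr9:7445572-7445871 for Mmp3, all on the plus strand. That of Mmp28, the MMP gene with the largest rise, is chr11:83462991-83463290 on the minus strand and holds no match. The windows of Mmp11, Mmp14, Mmp24, Adamts1 and Adam15, which were lower in CSC, hold no match either. Capitals mark the motif.
Mmp13: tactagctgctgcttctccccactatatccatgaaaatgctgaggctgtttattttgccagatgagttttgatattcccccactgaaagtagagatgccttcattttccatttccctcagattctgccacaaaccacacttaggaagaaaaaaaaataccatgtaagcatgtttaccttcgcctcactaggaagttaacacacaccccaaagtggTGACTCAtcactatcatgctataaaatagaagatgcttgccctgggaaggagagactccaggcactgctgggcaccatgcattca
Mmp10: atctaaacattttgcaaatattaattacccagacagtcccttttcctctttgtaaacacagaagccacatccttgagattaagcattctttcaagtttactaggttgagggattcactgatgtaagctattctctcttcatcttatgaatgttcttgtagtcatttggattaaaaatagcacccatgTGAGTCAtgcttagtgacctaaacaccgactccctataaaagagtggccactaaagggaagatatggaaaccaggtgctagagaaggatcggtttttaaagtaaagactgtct
Mmp3: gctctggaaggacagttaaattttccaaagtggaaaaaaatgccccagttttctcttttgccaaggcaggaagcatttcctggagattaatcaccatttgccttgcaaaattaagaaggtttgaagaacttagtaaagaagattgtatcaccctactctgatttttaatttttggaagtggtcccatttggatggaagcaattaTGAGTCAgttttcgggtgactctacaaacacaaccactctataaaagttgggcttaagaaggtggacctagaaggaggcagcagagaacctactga
Mmp28: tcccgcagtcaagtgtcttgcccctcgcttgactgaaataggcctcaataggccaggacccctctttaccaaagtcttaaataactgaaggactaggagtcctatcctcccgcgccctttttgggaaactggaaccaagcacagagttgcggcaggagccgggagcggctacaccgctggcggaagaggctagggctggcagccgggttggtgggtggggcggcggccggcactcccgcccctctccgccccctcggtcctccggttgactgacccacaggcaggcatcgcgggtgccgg
The motif begins 35 bases before the start of Mmp13, 63 bases before that of Mmp10 and 46 bases before that of Mmp3. The word TATAAA, searched on both strands after the sequences were seen, is in the windows of the same 3 genes and of Adamts1, and in 13.6% of all windows. On the strand of the gene it begins 16, 29 and 7 bases before the starts of Mmp13, Mmp10 and Mmp3. A match is a description of the letters and was not tested as a binding site.

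Other MMP genes moved in both directions. Mmp28 encodes epilysin, a secreted MMP of epithelia, and measured 19.5, 19.3 and 18.7 CPM in non-CSC against 103, 101 and 104 CPM in CSC. The groups did not overlap, and the rise was 5.36-fold (log2 fold change 2.42 ± 0.045 SE, adjusted p = 3.08e-22). Mmp28 lies on chromosome 11 at 83440768 to 83463040. Exons of another gene, 1700020L24Rik, cover 12.0% of its exon bases, and that gene also rose, from 3.73 to 22.8 CPM. How reads from the shared bases were assigned is not stated. Of the 30 tested genes next to Mmp28, 12 were higher and 9 lower, with a median of 0.04. Mmp15, a membrane-type MMP gene, rose from 2.42, 2.05 and 2.23 CPM to 5.69, 4.31 and 5.17 CPM, a 2.27-fold rise (log2 fold change 1.18 ± 0.13 SE, adjusted p = 2.06e-08). Mmp23 was close to the lower limit of counts, at 0.159, 0.432 and 0.311 CPM in non-CSC and 0.943, 0.459 and 0.551 CPM in CSC. Its log2 fold change was 1.08 ± 0.35 (SE, adjusted p = 0.0104). The call rested on single libraries, since it was lost without non-CSC replicate 1 (adjusted p = 0.0562) and without CSC replicate 1 (adjusted p = 0.12). Mmp19 rose from 3.57 to 5.21 CPM, a log2 fold change of 0.55, and exons of Tmem198b cover 28.3% of its exon bases. The 28 tested genes around Mmp19 had a median of 0.20, with 14 higher and 5 lower. The gelatinase gene Mmp2 rose from 1.18 to 1.65 CPM, a call lost without non-CSC replicate 3 (adjusted p = 0.0548), without CSC replicate 2 (adjusted p = 0.0803) and in DESeq2 (adjusted p = 0.109). The other gelatinase gene, Mmp9, had too few counts for values.

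**Figure D3:**
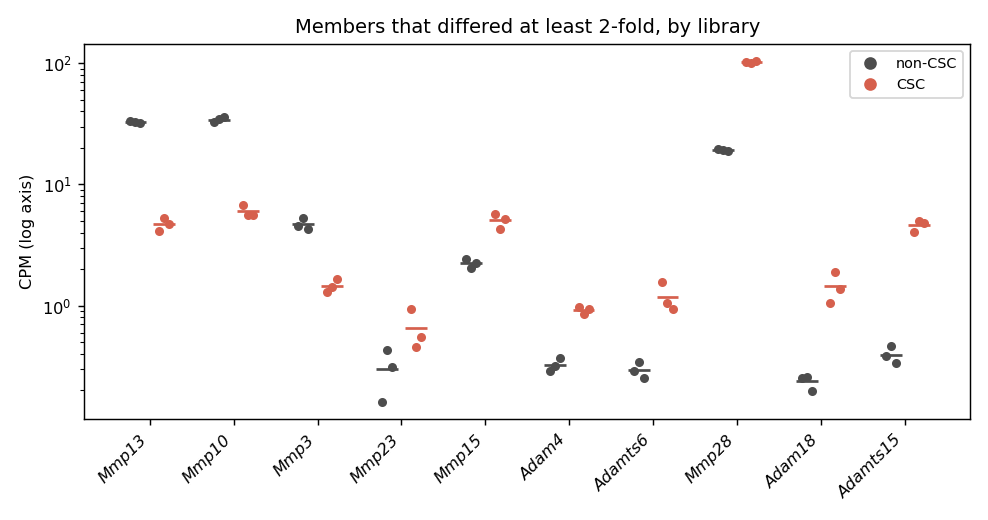
CPM (log axis) in each library for the 10 genes that differed at least 2-fold, in order of their fold change. Points are libraries and lines are group means. Mmp28 is the only one of the 10 above 100 CPM, and no gene has overlapping groups.

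The abundant membrane-type genes, Mmp14 and Mmp24, were lower in CSC. Mmp14 encodes membrane type 1 MMP, a collagenase of the cell surface that activates the Mmp2 product. It measured 450, 481 and 447 CPM in non-CSC and 323, 318 and 324 CPM in CSC. All CSC values were lower, by 1.43-fold (log2 fold change -0.51 ± 0.037 SE, adjusted p = 2.17e-11). Over the 16 alternatives its log2 fold change ranged from -0.54 to -0.34. Tested genes of chromosome 14, on which Mmp14 lies, had a median of -0.17. The 30 around Mmp14 had a median of -0.10, with 6 higher and 13 lower. Mmp24, the gene of membrane type 5 MMP, measured 234, 250 and 248 CPM in non-CSC and 231, 219 and 219 CPM in CSC. The log2 fold change of -0.13 (adjusted p = 0.0046) was no longer called with upper-quartile scaling (adjusted p = 0.108) or library-size scaling (adjusted p = 0.146). Exons of BC029722 cover 13.6% of the exon bases of Mmp24.

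Among the 5 sheddase ADAM genes with values, Adam9 fell and the 2 best known moved little. Adam9, the gene of a widely expressed sheddase, measured 282, 283 and 283 CPM in non-CSC and 178, 181 and 180 CPM in CSC. The libraries of each group were nearly identical, and the fall was 1.57-fold (log2 fold change -0.65 ± 0.034 SE, adjusted p = 6.14e-14). Adam10 encodes the sheddase that cuts Notch receptors, and measured 107, 105 and 110 CPM in non-CSC and 111, 116 and 116 CPM in CSC. Its log2 fold change of 0.09 was called (adjusted p = 0.0307) but lost under 7 of 16 alternatives, among them 4 of the 6 that leave out 1 library, with adjusted p from 0.00086 to 0.35 over the 16. Adam17 encodes TACE, which releases tumour necrosis factor and EGF receptor ligands. It measured 51.6, 48.2 and 52.2 CPM in non-CSC and 48.9, 51.0 and 48.4 CPM in CSC. The groups overlapped, and the log2 fold change was -0.04 with a 95% interval of -0.13 to 0.06 (adjusted p = 0.506). Its sign turned with upper-quartile and library-size scaling, and with an offset for the median of chromosome 12 (-0.34) it was called higher at 0.30 (adjusted p = 5.12e-06). Adam15 measured 193, 194 and 185 CPM in non-CSC and 182, 175 and 180 CPM in CSC. Its log2 fold change of -0.09 was lost under 6 of 16 alternatives and reversed, at 0.05, with the chromosome offset. Exons of 4731419I09Rik cover 20.6% of its exon bases. Adam8, the gene of a sheddase known from leukocytes, went from 11.6 ± 0.327 up to 14.7 ± 1.81 CPM (SD over 3 libraries each; log2 fold change 0.34).

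Low levels of ADAM genes known from testis were also measured, while the germ cell markers Acr, Dazl and Tnp1 were at 0 counts in every library. Adam18, which encodes a sperm surface protein, measured 0.255, 0.259 and 0.198 CPM in non-CSC and 1.05, 1.91 and 1.38 CPM in CSC. The groups did not overlap, with 7 to 9 counts against 29 to 54, and the log2 fold change was 2.59 ± 0.29 (SE, adjusted p = 4.15e-08). Adam4 measured 0.287, 0.317 and 0.367 CPM in non-CSC and 0.979, 0.848 and 0.930 CPM in CSC (log2 fold change 1.49 ± 0.26 SE, adjusted p = 2.63e-05). Of its 50-base words 17.4% are shared with Gm4787, so its level is uncertain. Adam3, another sperm gene, was the highest of these, at 9.06 ± 0.321 CPM in non-CSC and 11.9 ± 1.06 CPM in CSC (SD over 3 libraries each; log2 fold change 0.40). Adam18, Adam3 and Adam9 lie within 1 stretch of chromosome 8, from 24602246 to 25017040, and the 30 tested genes around it had a median log2 fold change of -0.02. Adam1a rose from 0.591 to 0.954 CPM, a call lost without CSC replicate 2 (adjusted p = 0.281), without non-CSC replicates 1 and 3 (0.0513 and 0.0607) and in DESeq2 (0.103). All of its words are shared with Gm42878. Adam22, which is not counted among these testis genes, overlapped between the groups at 0.359 and 0.433 CPM. The 95% interval of its log2 fold change was -0.53 to 1.04.

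The aggrecanase-type ADAMTS genes split. Adamts15 encodes a protease that cuts versican, and rose from 0.382, 0.461 and 0.339 CPM to 4.03, 4.98 and 4.79 CPM. Per library it had 12 to 16 counts in non-CSC and 111 to 141 in CSC. This was the largest rise among the 34 genes, 11.6-fold (log2 fold change 3.53 ± 0.18 SE, adjusted p = 3.22e-14). It lies on chromosome 9 at 30899155 to 30922452, where the 30 tested genes around it had a median of -0.04. Adamts4 and Adamts1, also proteases of aggrecan and versican, were the abundant ADAMTS genes and both fell. Adamts4 measured 311, 307 and 306 CPM in non-CSC and 193, 193 and 200 CPM in CSC, a 1.58-fold fall (log2 fold change -0.66 ± 0.035 SE, adjusted p = 7.90e-14). Adamts1 measured 136, 139 and 138 CPM in non-CSC and 94.9, 88.3 and 95.3 CPM in CSC, a 1.49-fold fall (log2 fold change -0.57 ± 0.038 SE, adjusted p = 6.26e-12). Neither gene had overlapping groups. Adamts20 was near the limit of counts, at 0.349 and 0.388 CPM, and did not pass the test (95% interval of the log2 fold change -0.58 to 0.92).

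The other ADAMTS genes were low and higher in CSC. Adamts6 measured 0.287, 0.346 and 0.254 CPM in non-CSC and 1.56, 1.06 and 0.930 CPM in CSC, a 3.95-fold rise (log2 fold change 1.98 ± 0.28 SE, adjusted p = 1.48e-06). Its counts were low, with 9 to 12 per non-CSC library and 27 to 43 per CSC library. Adamts7, whose product cuts cartilage oligomeric matrix protein, rose from 1.37 to 2.68 CPM, just under 2-fold (log2 fold change 0.96). Exons of Tbc1d2b, a far more abundant gene (193 CPM in non-CSC and 178 in CSC), cover 1.94% of the exon bases of Adamts7. The level of Adamts7 is therefore uncertain. Adamts14, the gene of a procollagen N-proteinase, rose from 12.0 ± 0.406 to 17.3 ± 0.404 CPM (SD over 3 libraries each; log2 fold change 0.53). Adamts10 had overlapping groups at 9.62 and 11.2 CPM, and its call (log2 fold change 0.22, adjusted p = 0.0209) was lost under 5 of 16 alternatives. These included the fits without non-CSC replicate 3 and without CSC replicates 2 and 3, with adjusted p of 0.102, 0.0953 and 0.133. Around Adamts10 the 30 tested genes had a median log2 fold change of 0.28, with 17 higher and 4 lower. Around Adamts14 the median was 0.21, with 16 higher and 4 lower. The ADAMTS-like genes encode related matrix proteins without the protease part. Adamtsl4 rose from 19.0 to 25.8 CPM (log2 fold change 0.44). Adamtsl5 measured 73.1, 72.2 and 66.7 CPM in non-CSC and 81.9, 73.3 and 78.3 CPM in CSC. Its log2 fold change of 0.14 was lost without non-CSC replicate 3 (adjusted p = 0.109), without CSC replicate 1 (0.123) and with the chromosome offset (0.0659).

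Of the 4 inhibitor genes, Timp2 and Timp1 rose, Timp3 did not pass the test, and Timp4 was at 0 counts in all 6 libraries. Timp2 encodes a secreted inhibitor that also takes part in the activation of the Mmp2 product by membrane type 1 MMP. It measured 502, 522 and 514 CPM in non-CSC and 779, 717 and 764 CPM in CSC, without overlap, a 1.47-fold rise (log2 fold change 0.56 ± 0.037 SE, adjusted p = 5.01e-12). Timp1 measured 37.6, 38.5 and 37.1 CPM in non-CSC and 44.9, 45.03 and 44.4 CPM in CSC. The rise was 1.19-fold (log2 fold change 0.25 ± 0.045 SE, adjusted p = 4.46e-05), and the 30 tested genes around it on the X chromosome had a median of 0.27, with 15 higher and 1 lower. Timp3, the gene of the matrix-bound inhibitor that also blocks the Adam17 product, measured 154, 155 and 155 CPM in non-CSC and 151, 159 and 164 CPM in CSC. The CSC values lay on both sides of the non-CSC values, and the 95% interval of the log2 fold change was -0.05 to 0.11 (adjusted p = 0.488). It was called higher with upper-quartile (0.09) and library-size scaling (0.10), and its sign turned with the chromosome offset and without CSC replicate 3. Exons of Syn3 cover 21.3% of the exon bases of Timp3.

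**Figure D4:**
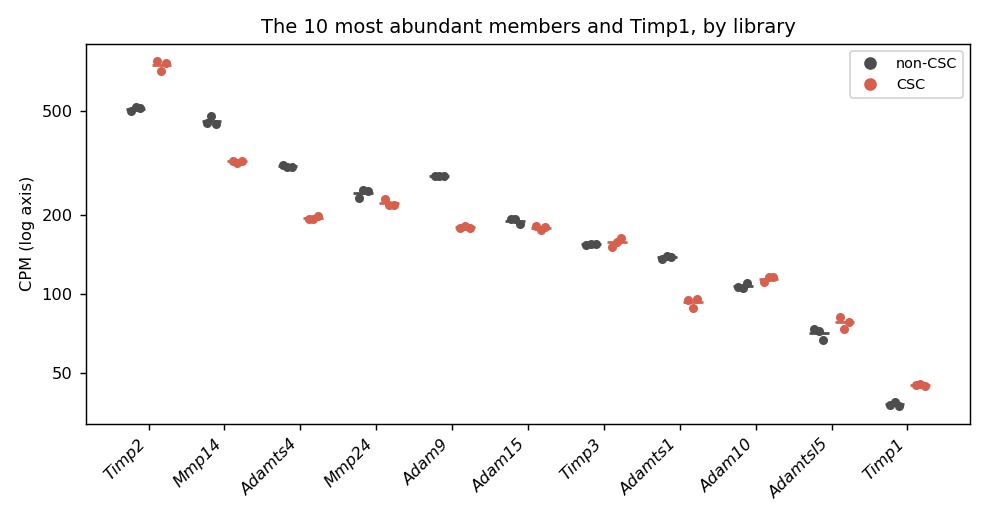
CPM (log axis) in each library for the 10 genes with the highest mean level and for Timp1. Points are libraries and lines are group means. Timp2 is the highest in both groups and rises, while Mmp14, Adamts4, Adam9 and Adamts1 fall without overlap.

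Levels can be compared between genes only per length, so CPM were divided by the kilobases of exon that GENCODE M21 annotates for each gene, which counts all isoforms. On this scale Timp2 was the highest of the 34 genes in both groups, at 132 ± 2.54 CPM per kb in non-CSC and 193 ± 8.20 in CSC (SD, n = 3 each). In non-CSC it was followed by Mmp14 (77.0 ± 3.17 CPM per kb), Adam9 (68.7 ± 0.147), Adamts4 (64.0 ± 0.557), Mmp24 (52.1 ± 1.92) and Timp1 (42.5 ± 0.824). Each of these neighbours differed by more than the sum of their SDs. In CSC the order after Timp2 was Mmp14 (54.0 ± 0.517), Timp1 (50.4 ± 0.354), Mmp24 (47.6 ± 1.48), Adam9 (43.7 ± 0.377) and Adamts4 (40.6 ± 0.773). These steps, too, exceeded the summed SDs. The SDs describe the libraries only, not errors from annotated lengths, isoform use or shared exons. The order of genes therefore remains uncertain. Mmp10 had rank 10 in non-CSC (19.8 ± 0.969 CPM per kb), next to Timp3 (19.0 ± 0.0545) and within its spread of it, and stood at 3.48 ± 0.416 in CSC.

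Summed per kb, the 11 MMP genes with values reached 174, 183 and 178 CPM per kb in non-CSC and 146, 141 and 143 in CSC. The 3 TIMP genes reached 190, 196 and 193 in non-CSC and 269, 254 and 266 in CSC. The sum of TIMP over that of MMP was 1.09, 1.07 and 1.08 in non-CSC and 1.85, 1.80 and 1.86 in CSC, with Timp2 and Mmp14 the largest parts. The sums of the ADAM genes were 134 to 135 in non-CSC and 111 in each CSC library, and those of the ADAMTS genes 93.3 to 94.2 and 62.6 to 65.3. These sums are of RNA and say nothing of protein or of enzyme activity. They carry no test, since the genes were chosen with results known.

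**Figure D5:**
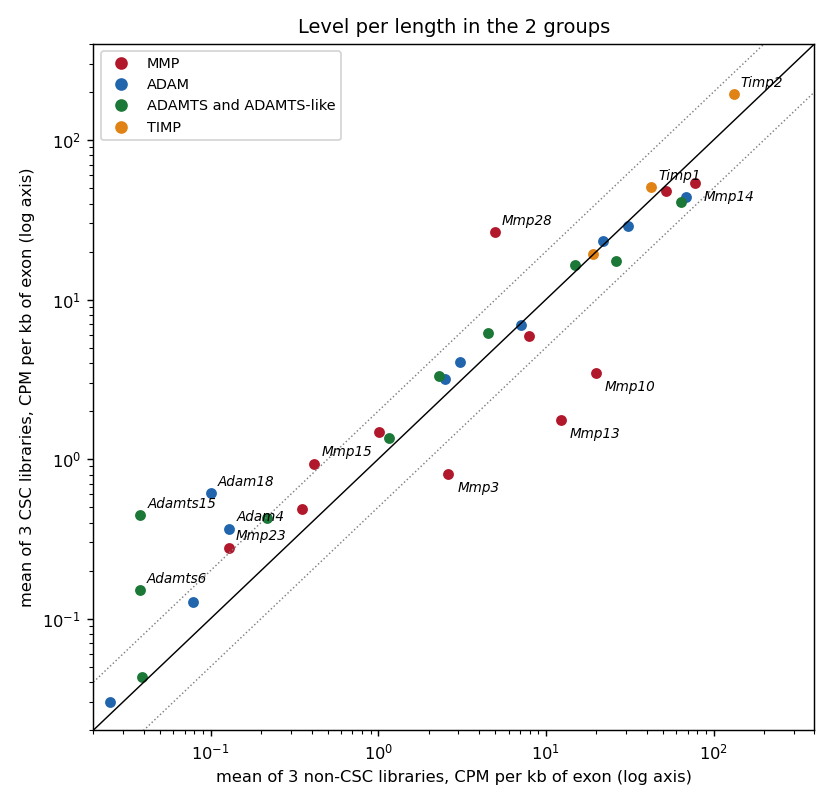
Mean CPM per kb of exon in CSC (vertical) against non-CSC (horizontal) for the 34 genes, both axes logarithmic, coloured by family. The solid line is equality and dotted lines are 2-fold. The abundant genes lie close to the line, Mmp28 lies above it, and Mmp10, Mmp13 and Mmp3 lie below.

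Most of the 2-fold changes were in genes of low level. Of the 13 genes with a mean under 5 CPM, 6 were at least 2-fold higher and 1 (Mmp3) at least 2-fold lower. Among these 6, all but Mmp15 had only 5 to 16 counts in each non-CSC library and reached the limit of 60 counts largely through CSC, so the choice of genes in part fixes this count. Of the 21 genes at 5 CPM or more, 1 (Mmp28) was higher and 2 (Mmp13 and Mmp10) lower. The same tilt was present across all genes tested. There, 21.6% of genes under 5 CPM changed at least 2-fold (15.7% higher), against 6.56% of those at 5 CPM or more (3.51% higher). It is therefore not particular to these families. None of the 10 most abundant genes changed 2-fold, and their log2 fold changes ranged from -0.66 (Adamts4) to 0.56 (Timp2).

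The remaining 50 genes had no values. Of these, 21 were at 0 in all 6 libraries, where the 3 counts that a count of 0 allows correspond to 0.0848 to 0.109 CPM per library (counting error only). They include 13 Adam genes, 5 Adamts genes, Mmp16, Mmp20 and Timp4. The other 29 had sums of 1 to 33 counts, among them Mmp7, Mmp8, Mmp12, Adam12, Adam19, Adam28 and Adamts5. The genes nearest the limit of 60 were Adam11 (33), Mmp21 (30) and Adamts8 (30) outside it and Adamts20 (68), Adam22 (74) and Mmp23 (86) inside.

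Partners of the sheddases were measured beside them. Of 9 genes listed, 8 were tested, and 3 rose and 5 fell. Rhbdf2, which encodes a rhomboid protein that carries the Adam17 product to the cell surface, measured 149, 148 and 143 CPM in non-CSC and 94.4, 88.3 and 95.4 CPM in CSC (log2 fold change -0.66, adjusted p = 6.45e-13). The tetraspanins of the next genes bind the Adam10 product and direct it to its substrates. Tspan5 fell by 0.77 and Tspan14 by 0.56 on the log2 scale, while Tspan15 rose from 49.6, 46.8 and 45.5 CPM to 71.3, 71.6 and 68.2 CPM (log2 fold change 0.57). Some proprotein convertases, furin among them, remove the prodomains of ADAMs and membrane-type MMPs. Of 8 convertase genes listed, not all of which have this role, 5 were tested, with 3 higher and 2 lower. Furin measured 425, 430 and 397 CPM in non-CSC and 268, 253 and 265 CPM in CSC, a log2 fold change of -0.67 (adjusted p = 3.72e-13), and Pcsk4 fell by 0.60. Mbtps1 rose by 0.37 and Pcsk6 by 0.34 on the log2 scale.

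In the list of activation, inhibition and clearance, 8 of 15 genes were tested, 5 higher and 3 lower. Plaur, the gene of the urokinase receptor, measured 278, 276 and 263 CPM in non-CSC and 108, 115 and 110 CPM in CSC, a log2 fold change of -1.30 (adjusted p = 1.45e-18). Thbs1 (2.20) and Lcn2 (7.10), whose products bind MMPs among other partners, had the largest rises on the log2 scale. Thbs1 went from 335 to 1534 CPM. Lcn2 had only 3, 7 and 1 counts in the non-CSC libraries and 15.4 CPM in CSC, so the size of its rise is uncertain. Reck, which encodes a membrane-anchored MMP inhibitor, was at 0 counts, and Plau, the gene of urokinase itself, had 8 counts in all. Among other metalloproteases 3 of 12 were tested. Ece1, the endothelin-converting enzyme gene, rose by 1.12, and Bmp1, the gene of a procollagen C-proteinase, fell by 0.80 on the log2 scale.

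The RNA of genes whose proteins these enzymes release from the cell surface moved in both directions. Of 8 EGF-family ligand genes 6 were tested, 3 higher and 3 lower. Areg measured 69.5, 67.1 and 68.6 CPM in non-CSC and 8.09, 7.98 and 8.51 CPM in CSC (log2 fold change -3.06, adjusted p = 1.75e-22), and Hbegf fell by 0.76. Nrg1 rose by 0.97 and Tgfa by 0.28 on the log2 scale. Of 28 genes of other shed proteins 24 were tested, 9 higher and 11 lower, with a median log2 fold change of -0.14. Jag1 and Notch1, ligand and receptor of the Notch pathway, fell by 1.47 and 1.18, while the membrane chemokine gene Cx3cl1 rose by 1.37 and the interleukin 6 receptor gene Il6ra by 1.27 on the log2 scale. A further list held AP-1 and ETS factors, transcription factors known to act on MMP promoters, and Runx2, which is of neither type. All 13 genes of this list were tested, 4 higher (Runx2 among them) and 7 lower, with a median of -0.28. Fosl1 measured 49.4, 44.1 and 41.0 CPM in non-CSC and 15.6, 12.3 and 14.1 CPM in CSC (log2 fold change -1.68, adjusted p = 1.47e-10). Ets1 fell by 1.10, Etv4 by 0.97 and Jun by 0.73 on the log2 scale. Fosl2 rose from 176 to 214 CPM, and Ets2, Elf3 and Runx2 were also higher, by 0.26, 0.19 and 0.39. Junb (288 and 277 CPM) and Jund (461 and 450 CPM) were not called. Whether any of these factors has a part in the fall of Mmp13, Mmp10 and Mmp3 was not tested.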

How the data were processed

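Per the labels' protocols, libraries were prepared with an NEB Next Ultra Ⅱ RNA kit from Trizol-extracted total RNA of EO771 cells, in 3 CSC and 3 non-CSC samples. The authors deposited raw read counts per gene symbol, and the submitters' processing notes name GRCm38. Aligner, counter, annotation and strand setting: not given in the sources used here. Genes were taken by symbol, and the genes and lists were chosen with earlier results of these data known. All genes passing filterByExpr were fitted in edgeR 4.0.16 (quasi-likelihood, robust, TMM factors 0.974 to 1.03), with Benjamini-Hochberg adjustment and a threshold of 0.05; a standard error is the log2 fold change over the square root of F. The fit was tested on simulated data. Alternatives were RLE, upper-quartile and library-size scaling, other count filters, DESeq2 1.42.0, limma-voom (limma 3.58.1), robust off, a replicate block, a chromosome offset and leaving out each library. Counts of replicates differed by more than sampling noise (chi-square over degrees of freedom 3.21 to 7.30), so all 6 libraries were kept as separate samples. All 84 symbols matched RefSeq (GRCm38.p6) and GENCODE M21 (GRCm38), which gave positions, exon lengths and overlaps. Genes named with every library's value are those with at least 2-fold changes, the 10 highest by mean CPM and the Timp genes, while other genes of the family are given with less detail. Each other list is named by up to 4 genes with the largest called changes at 5 CPM or more, some with library values. Adam17 (given in full), Reck and Plau fall outside the rule and were chosen after their values were seen. The same holds for the genes of the list of AP-1 and ETS factors (with Runx2) named as higher or not called. One gene that this rule names is not reported here. Protein sequences were not used here.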

Additional observations from a re-analysis of the deposited data

How the results depend on the processing

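Under 16 alternatives, 22 of the 30 calls held in direction and threshold wherever the gene was tested. The other 8, Adam10, Adam15, Adam1a, Adamts10, Adamtsl5, Mmp2, Mmp23 and Mmp24, were lost under at least 1. The 3 genes at least 2-fold lower were 3 under every alternative. With a filter at a mean of 50 counts, which tested 26 of the 34 genes, 3 were at least 2-fold higher in place of 7. Leaving out each library gave 16 to 19 genes higher, 9 to 10 lower, 6 to 8 at least 2-fold higher and 11175 to 11577 genes called in all. The sign of 5 genes changed, of which only Adam17 with the chromosome offset was then called. Adam17 had 0.023 with upper-quartile scaling, 0.030 with library-size scaling and 0.300 with the chromosome offset. With that offset Adam15 had 0.048 and Timp3 -0.009. With 1 library left out, Timp3 ranged from -0.002 (without CSC replicate 3) to 0.051, Adam22 from -0.034 (without non-CSC replicate 1) to 0.603 and Adamts20 from -0.181 (without non-CSC replicate 3) to 0.365. The cause was not tested. Upper-quartile and library-size scaling moved the median of all genes from 0.01 to 0.07 and 0.08. Same-numbered libraries did not deviate together (r of -0.013, -0.024 and -0.021), so the numbers are not taken to pair them. With a replicate block 20 genes were higher and 10 lower, and 11680 genes were called in all. Low counts limit Adam22, Adamts20, Mmp23, Adam4, Adamts6, Adam1a and Adam18.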
